A study of Mus musculus with 12 samples.

Results

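Txnip, the arrestin-domain genes Arrdc1 to Arrdc4 and the glucose-sensor genes Mlx, Mlxip and Mlxipl were followed across 3 doses of PFOS in C2C12 myoblasts, a mouse skeletal muscle line. These 8 genes were taken by name from a deposited table of 54532 genes. The set was chosen by the measured Txnip levels in these libraries, which were low at 2 µM, so the dose differences of its members are described with standard errors (SE). Members that passed the test over all genes are only counted, beside the share of all genes that passed, and nothing is supported with those counts. Cells at 100% confluency received 0, 2 or 6 µM perfluorooctanesulfonate (PFOS, a persistent perfluorinated surfactant) for 24 h, with 4 RNA-seq libraries per dose. Apart from the dose, the labels gave all 12 libraries the same cell line and handling. Whether replicates were separate cultures is not stated, so p-values measure only the spread between these libraries, which may be technical. RNA was purified messenger RNA, and fewer cells of a type cannot be told apart from less RNA per cell.

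Txnip encodes thioredoxin-interacting protein, an arrestin-fold protein that binds thioredoxin and lowers glucose uptake by driving glucose transporters off the cell surface. Its transcription is switched on by MondoA (gene Mlxip) and ChREBP (gene Mlxipl), which sense phosphorylated glucose and bind DNA together with their partner MLX. The ARRDC proteins are its relatives, adaptors that recruit NEDD4-type ubiquitin ligases to membrane proteins, and Arrdc4 is a known target of MondoA alongside Txnip. In muscle, Txnip and Arrdc4 are classical readouts of glucose supply.

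The sequence before the Txnip start carries a tandem pair of E-box-like motifs, the kind of element through which MondoA, ChREBP and MLX act. RefSeq promoter sequences (GRCm38.p6) were matched for all 8 genes, and the 250 bases before each start were searched. The next lines show the windows of Txnip and of Arrdc3, the members whose doses stood apart, and of Arrdc4, the other known MondoA target, each 5′ to 3′ on the strand of the gene. Capitals mark matches, on either strand, to the paired E-box (CACGNG, any 5 bases, then CACGNG), the E-box CACGTG, the CCAAT box CCAAT (which binds NF-Y) and the FoxO core GTAAACA.
Txnip (chr3:96557707-96557956, plus strand): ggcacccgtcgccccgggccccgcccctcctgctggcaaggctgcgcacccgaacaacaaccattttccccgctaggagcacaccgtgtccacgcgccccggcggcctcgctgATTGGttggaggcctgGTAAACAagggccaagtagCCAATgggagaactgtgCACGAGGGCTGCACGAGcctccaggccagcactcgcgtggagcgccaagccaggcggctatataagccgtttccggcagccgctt
Arrdc3 (chr13:80883134-80883383, plus strand): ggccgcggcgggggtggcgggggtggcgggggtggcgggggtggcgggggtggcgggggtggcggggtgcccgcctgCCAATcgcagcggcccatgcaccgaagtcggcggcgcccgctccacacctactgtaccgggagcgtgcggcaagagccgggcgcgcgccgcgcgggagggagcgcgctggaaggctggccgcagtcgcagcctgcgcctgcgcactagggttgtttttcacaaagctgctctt
Arrdc4 (chr7:68749239-68749488, minus strand): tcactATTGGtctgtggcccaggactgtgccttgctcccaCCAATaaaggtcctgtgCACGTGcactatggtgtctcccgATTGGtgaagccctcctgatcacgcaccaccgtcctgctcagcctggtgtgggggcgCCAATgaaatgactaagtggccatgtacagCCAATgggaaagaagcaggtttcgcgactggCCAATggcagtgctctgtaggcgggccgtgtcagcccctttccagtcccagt

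In the Txnip window the paired E-box read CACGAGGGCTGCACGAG and lay at chr3:96557872-96557888, from 85 to 69 bases before the start. A FoxO core lay at -121 to -115 and CCAAT boxes at -137 to -133 and -102 to -98. Of all 32851 RefSeq windows of this length, 15 (0.0457%) held the paired E-box, 6.02% the E-box, 33.8% the CCAAT box and 3.17% the FoxO core. No other window of the 8 genes had the paired E-box. Arrdc4 had 6 CCAAT boxes and an E-box at -193 to -188, Mlx an E-box at -40 to -35, and Mlxipl one at -98 to -93. Arrdc3 had a single CCAAT box in the window shown, and Arrdc1 had no match. A paired E-box can contain CACGTG, and the one of Txnip does not. A match is a description of the letters only.

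**Figure D1:**
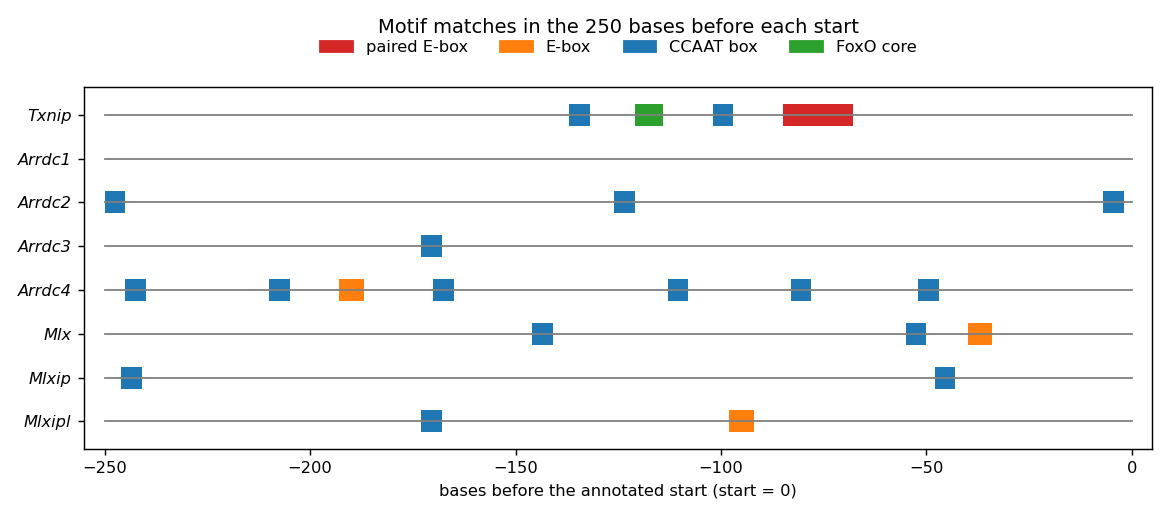
Positions of motif matches in the 250 bases before the annotated start of each of the 8 genes (x axis, bases before the start; for Arrdc3 and Mlxipl the window next to the start of the gene in the deposited table). Txnip alone among them holds the paired E-box, from -85 to -69, beside a FoxO core and 2 CCAAT boxes.

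Libraries held 30206155 to 50351082 gene counts. Values are CPM, the usual counts scaled to library size, here with TMM-scaled sizes, and a mean ± SD covers the 4 libraries at one dose. Of the 8 genes, 7 passed the filter on low counts, which kept 16038 genes. Myoblast markers summed to 544 to 627 CPM at 0 µM, 546 to 587 at 2 µM and 525 to 574 at 6 µM, with 6 of 7 passing the filter. Pax7 did not pass, at 0 to 0.379 CPM. The sum hides differences by gene. Mean CPM at 0, 2 and 6 µM was 30.3, 28.1 and 23.2 for Myod1, 37.3, 33.3 and 31.3 for Cdh15, and 259, 229 and 230 for Des. It was 2.39, 2.79 and 1.79 for Myf5, 178, 180 and 175 for Itga7, and 86.4, 90.5 and 88.5 for Vcam1. No test of these markers is given. Defining markers of other cells were at or near 0: Epcam, Cdh1, Krt8 and Krt18 summed to at most 0.135 CPM, Ptprc reached 0.10 CPM, Pecam1 0.277 CPM and Adipoq was 0 in every library. One marker of each of 4 lists was well above 0. Syt1 of the neuron list was at 27.5 to 38.8 CPM, Cd14 of the leukocyte list at 6.45 to 10.4, Fabp4 of the adipocyte list at 5.63 to 9.18 and Cdh5 of the endothelial list at 4.34 to 6.80. Mean Fabp4 was 5.80, 7.32 and 7.99 CPM at 0, 2 and 6 µM, and the part of these 4 genes in the results was not tested.

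Levels were compared between genes per kilobase of gene length. Mlx, at 10.6 ± 0.594 CPM per kb over all 12 libraries, and Arrdc3, at 10.5 ± 0.730, were highest and overlapped. Txnip followed at 5.09 ± 0.965, overlapping Mlxip at 4.67 ± 0.295. Arrdc2 at 3.33 ± 0.393 and Arrdc1 at 3.01 ± 0.265 overlapped each other. The neighbours in this order also overlapped further up, since the highest Arrdc2 library, at 4.11, exceeded the lowest Mlxip library, at 4.04, and the lowest Txnip library, at 3.40. Mlxipl was far lower, at 0.0778 ± 0.0554, and Arrdc4 was at 0. On this scale MondoA and MLX transcripts were well above the ChREBP transcript.

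Txnip (ENSMUSG00000038393) is a protein-coding gene at chr3:96557957-96561883 on the plus strand (GRCm38). At 0 µM its libraries measured 16.3, 16.5, 16.9 and 15.3 CPM. At 2 µM they measured 14.0, 10.6, 13.2 and 12.6 CPM, and at 6 µM 20.3, 19.9, 19.5 and 15.8 CPM. Every 2 µM library lay below every library of both other doses, while 6 µM replicate 4 fell inside the 0 µM range. Such separation was seen in the lower direction for 3.6% of all genes at 2 against 0 µM and in the higher direction for 4.45% at 6 against 2 µM. Counts behind these values ran from 470 to 882 per library, for a counting error of 4.61% at the lowest and 3.37% at the highest. The antisense gene Gm15441, which overlaps Txnip, had 31 counts over all libraries against 7869 for Txnip.

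The dose means of Txnip were 16.3 ± 0.690, 12.6 ± 1.43 and 18.9 ± 2.05 CPM (SD, n = 4). Its log2 fold change was -0.37 (SE 0.0993) at 2 against 0 µM, 0.59 (SE 0.0985) at 6 against 2 µM and 0.21 (SE 0.0980) at 6 against 0 µM. As ratios of means, the 2 µM level was 0.773 of the untreated level and the 6 µM level 1.16 of it. Leaving out single libraries gave -0.43 to -0.30 at 2 against 0 µM and 0.51 to 0.66 at 6 against 2 µM. The smallest difference from 0 µM came without 2 µM replicate 2, the library with the lowest Txnip. At 6 against 0 µM the range was 0.18 to 0.29, the highest without 6 µM replicate 4.

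**Figure D2:**
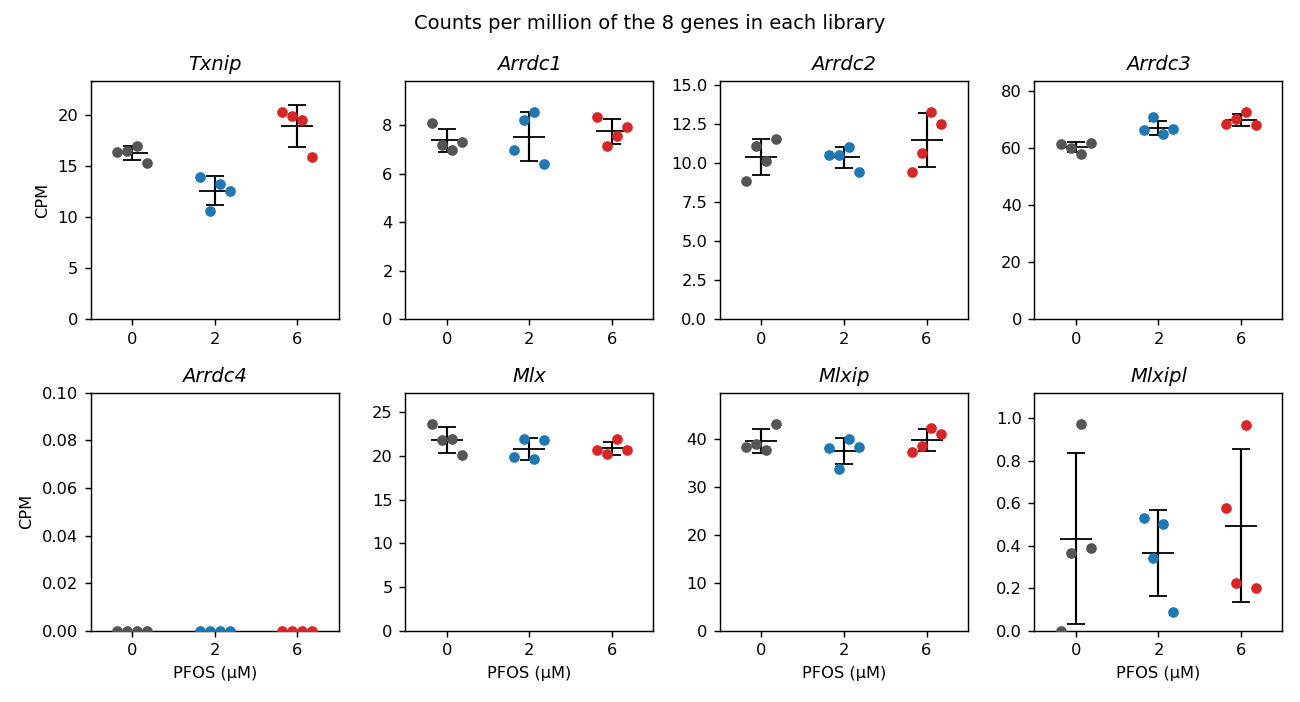
CPM of the 8 genes (y axes start at 0 and differ by gene) in each library at 0, 2 and 6 µM PFOS; points are libraries and bars are mean ± SD, n = 4. Txnip dips at 2 µM with no overlap with the other doses, Arrdc3 is higher at both doses than at 0 µM, Arrdc4 is 0 in all 12 libraries, and the doses of the other genes overlap.

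**Figure D3:**
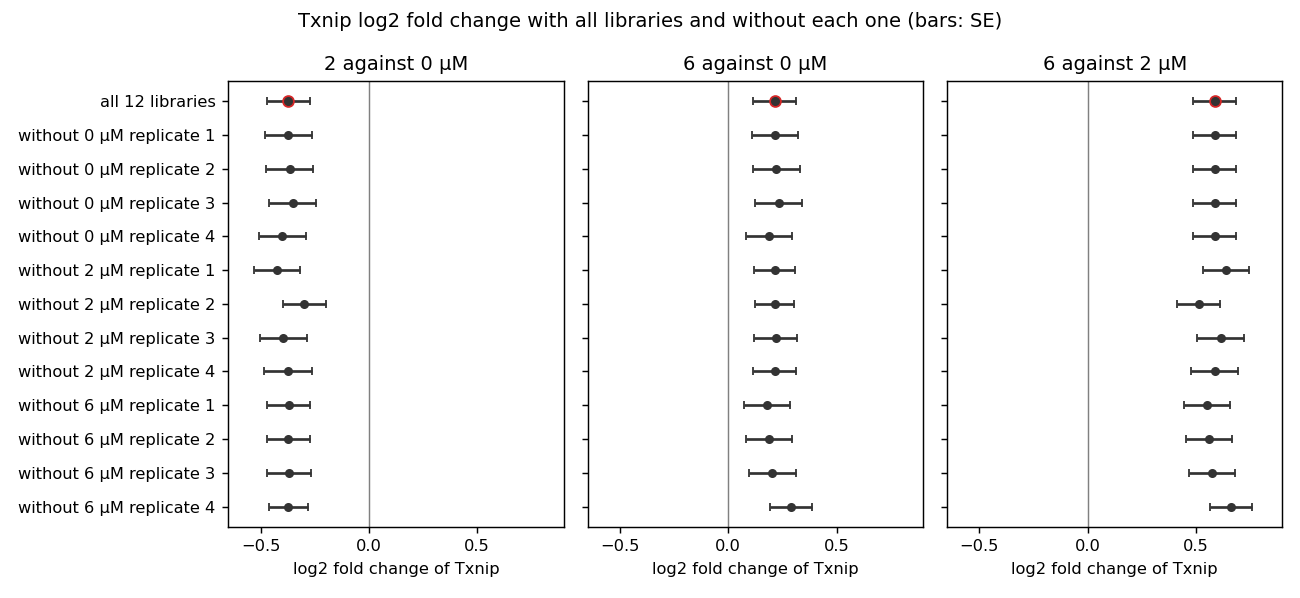
Log2 fold change of Txnip (x axis, bars are SE) for each comparison of doses, with all 12 libraries (red) and without each library in turn. The values stay between -0.43 and -0.30, between 0.18 and 0.29, and between 0.51 and 0.66.

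By an adjusted p under 0.05 in edgeR's quasi-likelihood test over all 16038 genes, Txnip was the 1 member of 7 called at 2 against 0 µM, where 2.35% of all genes were called and 0.742% were called lower. It was also the 1 member called at 6 against 2 µM (1.11% of all genes, 0.561% higher). Since these comparisons chose the set, nothing is read from those counts. For context, 1.61% of all genes were called higher at 2 against 0 µM, 3.66% lower at 6 against 0 µM and 0.549% lower at 6 against 2 µM. The call at 2 against 0 µM was borderline: it was made in 6 of 20 other settings, was lost with the replicate number as a block, and held after leaving out only 2 of the 12 libraries, 2 µM replicate 1 or 6 µM replicate 4. At 6 against 0 µM Arrdc3 was the 1 member called (8.24% of all genes, 4.58% higher), and Txnip was not called.

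Over all tested genes, 47 (0.293%) had every 2 µM library below every 0 and 6 µM library, and 94 (0.586%) had the mirror image. Txnip was chosen for this pattern, so its place among the 47 is no support for it. Besides Txnip, Efna3, an ephrin ligand gene, was called both lower at 2 against 0 µM and higher at 6 against 2 µM, which makes 2 genes (0.0125%) with Txnip counted. Efna3 went from 5.05 to 2.67 to 5.28 CPM. Another 9 genes (0.0561%) were called in the opposite order.

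Arrdc3 is the α-arrestin best known for steering β2-adrenergic receptor traffic and for effects on energy expenditure. The gene (ENSMUSG00000074794) lies at chr13:80883384-80896042 on the plus strand. Its libraries measured 61.6, 60.1, 58.1 and 61.8 CPM at 0 µM, 66.4, 70.8, 64.9 and 66.6 at 2 µM, and 68.4, 70.1, 72.7 and 68.2 at 6 µM. All 8 treated libraries were above all 4 untreated ones, and the 2 treated doses overlapped. The log2 fold change was 0.15 (SE 0.05) at 2 against 0 µM, 0.21 (SE 0.05) at 6 against 0 µM and 0.06 (SE 0.0497) at 6 against 2 µM. Complete separation from 0 µM in the higher direction was seen for 4.77% of all genes at 2 µM and 6.39% at 6 µM. In the lower direction it was seen for 6.15% at 6 against 0 µM and for 4.15% at 6 against 2 µM. The call of Arrdc3 at 6 against 0 µM was lost without 0 µM replicate 1 and 6 µM replicates 2 and 3 together. At 2 against 0 µM Arrdc3 was called in 1 of 20 other settings, DESeq2, which called 741 genes there beside 377 by edgeR.

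Arrdc1, whose product takes part in budding of vesicles from the cell surface, is at chr2:24925352-24935252 on the minus strand. It measured 8.08, 7.19, 7.0 and 7.30 CPM at 0 µM, 7.0, 8.21, 8.55 and 6.40 at 2 µM, and 8.37, 7.13, 7.58 and 7.95 at 6 µM. All doses overlapped, with log2 fold changes of 0.03 (SE 0.122) at 2 and 0.07 (SE 0.122) at 6 against 0 µM.

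Arrdc2, a less studied relative, is at chr8:70835129-70839720 on the minus strand. It measured 8.88, 11.1, 10.1 and 11.5 CPM at 0 µM, 10.5, 10.6, 11.05 and 9.43 at 2 µM, and 9.45, 10.7, 13.3 and 12.5 at 6 µM. The doses overlapped here too, and the log2 fold change at 6 against 0 µM was 0.14 (SE 0.117). At 2 against 0 µM the log2 fold changes of Arrdc1, Arrdc2 and Arrdc3 were 0.03, -0.0023 and 0.15 beside -0.37 for Txnip, a difference between genes that was not tested.

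Arrdc4, at chr7:68736995-68749241 on the minus strand, had 0 counts in each of the 12 libraries. A count of 0 allows up to 0.0601 to 0.0977 CPM, depending on the library (3 counts, counting error only). Of 22046 protein-coding genes in the table, 4894 (22.2%) were likewise at 0 in every library. Arrdc5, a further relative, had 4 counts in 1 library and 0 in the other 11. Whether the counting step could assign reads to Arrdc4 cannot be told from the table, so the limit holds only if it could.

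All doses overlapped for each of the sensor genes. Mlxip, at chr5:123394798-123457932 on the plus strand, measured 38.3, 38.9, 37.6 and 43.1 CPM at 0 µM, 38.1, 33.6, 39.9 and 38.3 at 2 µM, and 37.3, 38.5, 42.1 and 41.0 at 6 µM. Its log2 fold changes were -0.07 (SE 0.0677) and 0.0096 (SE 0.0676) at 2 and 6 against 0 µM. The lowest Mlxip value was in 2 µM replicate 2, the library that also had the lowest Txnip.

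Mlx, at chr11:101087277-101092207 on the plus strand, measured 23.7, 21.8, 21.9 and 20 CPM at 0 µM, 19.8, 21.9, 19.6 and 21.8 at 2 µM, and 20.7, 20.2, 21.9 and 20.7 at 6 µM. Its log2 fold changes against 0 µM were -0.07 at 2 µM (SE 0.0755) and -0.07 at 6 µM (SE 0.0756), and all doses overlapped. Psmc3ip overlaps Mlx on the opposite strand with 7582 counts beside 10504 for Mlx, and reads of the shared stretch may not be told apart because the strand setting is not given.

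Mlxipl, at chr5:135089890-135138382 on the plus strand, had 0 to 42 counts per library. It measured 0, 0.368, 0.975 and 0.391 CPM at 0 µM, 0.531, 0.341, 0.503 and 0.0886 at 2 µM, and 0.576, 0.226, 0.971 and 0.203 at 6 µM. The SE of its log2 fold changes, 0.755 to 0.764, exceeded the changes themselves. No dose difference was detectable, given these low counts and their wide spread between libraries of a dose.

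Other known targets of MondoA and ChREBP were compared between doses, and any relation of their changes to that of Txnip was not tested. Of 26 listed genes besides Txnip and Arrdc4, 19 were tested: 4 rose at 2 against 0 µM, and 8 rose at 6 against 0 µM and 7 at 6 against 2 µM, with none lower by edgeR's test. Called shares were 21.1%, 42.1% and 36.8%, beside 2.35%, 8.24% and 1.11% of all genes. Called genes leaned higher over all genes as well, with 1.61%, 4.58% and 0.561% called higher and 0.742%, 3.66% and 0.549% lower. Log2 fold changes were above 0 for 13, 13 and 12 of the 19, called or not. At an unadjusted p under 0.05, 0, 1 and 1 of the 19 were lower in that order, and DESeq2 called 0 lower in each. Their median log2 fold changes were 0.06, 0.11 and 0.06, beside -0.01, -0.02 and -0.0046 over all tested genes. The 8 included Klf10 and Klf11, zinc-finger repressors that respond to glucose and TGF-β, and the fatty acid synthesis genes Acaca, Acly, Elovl6, Fasn and Scd1. The list was written from textbook knowledge, with earlier results of these data known, and its members have other regulators as well.

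Klf10 measured 26.7 to 29.8 CPM at 0 µM, 35.7 to 41.6 at 2 µM and 53.7 to 60.7 at 6 µM, with no overlap at any step. It rose by 0.49 (SE 0.0660) at 2 against 0 µM and by 1.04 (SE 0.0658) at 6 against 0 µM on the log2 scale, where edgeR's quasi-likelihood test gave adjusted p = 0.000212 and 6.12e-10. Klf11 rose by 0.88 (SE 0.0789) at 6 against 0 µM, from 16.9 to 31.2 CPM, with an edgeR adjusted p of 2.11e-07. Its rise of 0.38 at 2 against 0 µM had an edgeR adjusted p of 0.0125, and of 0.056 without 2 µM replicate 4. Both genes also rose at 6 against 2 µM, by 0.55 and 0.50.

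Fgf21, a secreted metabolic hormone gene, rose at 2 µM by 0.46 (SE 0.0770), from 49.7 ± 5.27 to 68.3 ± 5.59 CPM (edgeR adjusted p = 0.0025). At 6 against 0 µM it rose by 0.30, with edgeR adjusted p values of 0.016, and of 0.0519 and 0.0524 without 6 µM replicates 1 and 3. Scd1, a fatty acid desaturase gene, rose by 0.34 at 6 against 0 µM and by 0.25 at 6 against 2 µM (edgeR adjusted p = 2.07e-06 and 0.000605), and had 0.10 and an adjusted p of 0.201 at 2 against 0 µM.

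**Figure D4:**
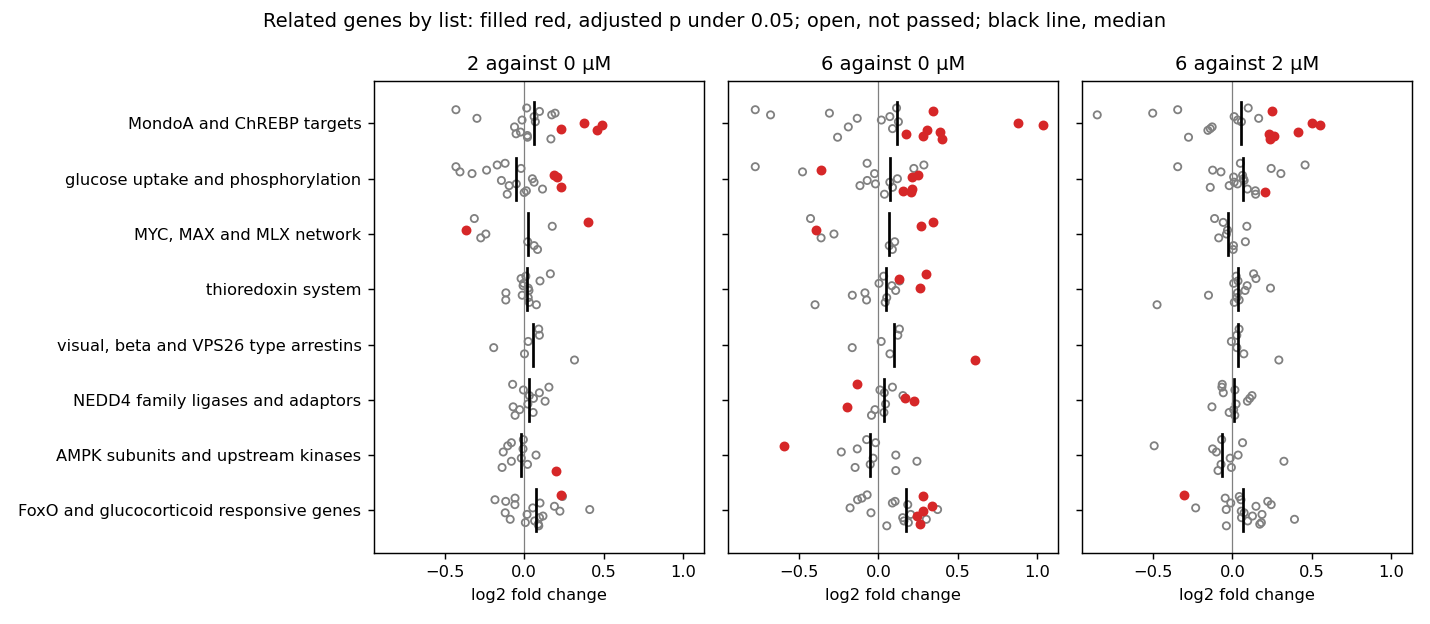
Log2 fold changes (x axis) of the tested genes of 8 related lists, without the 8 genes of the set, for each comparison of doses; red filled points passed an adjusted p under 0.05, open points did not, and black lines are list medians. Among the MondoA and ChREBP targets the passing points are all on the higher side.

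Of 23 genes of glucose uptake and phosphorylation, 19 were tested. At 2 against 0 µM 3 rose (Hk2, Pgm2 and Slc2a1), and at 6 against 0 µM 5 rose and 1 fell. List medians were -0.05 and 0.07, and 15.8% and 31.6% were called, beside 2.35% and 8.24% of all genes. Slc2a1, the gene of the basal glucose transporter GLUT1, went from 402 ± 25.1 to 479 ± 29.1 CPM at 6 µM, a rise of 0.25 (SE 0.0493, edgeR adjusted p = 0.00211). G6pdx, which opens the pentose phosphate pathway, rose by 0.20 at 6 against 0 µM (SE 0.0410, edgeR adjusted p = 0.00265). At 6 against 2 µM it was the 1 gene called, with an edgeR adjusted p of 0.0112, and of 0.0666 and 0.0563 without 6 µM replicates 1 and 4. Pgm2, a phosphoglucomutase gene, rose by 0.21 at both doses, and at 2 µM its edgeR adjusted p was 0.0139, and 0.0639 without 2 µM replicate 4.

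Hexokinase 2 (Hk2) makes the glucose 6-phosphate that MondoA senses. It was 249 ± 16.4 CPM at 0 µM, 291 ± 19.3 at 2 µM and 265 ± 17.8 at 6 µM. Its rise at 2 µM was 0.23 (SE 0.0554, edgeR adjusted p = 0.0294), and the call ended without any of 5 single libraries (0 µM replicates 1, 2 and 3 and 2 µM replicates 3 and 4, adjusted p 0.0534 to 0.155). The 2 and 6 µM libraries of Hk2 overlapped, with -0.14 at 6 against 2 µM (edgeR adjusted p = 0.273). At 6 against 0 µM Hk2 had 0.09 (edgeR adjusted p = 0.381). Any relation of Hk2 to Txnip was not tested. The Slc2a1 call at 2 against 0 µM (0.19, edgeR adjusted p = 0.0435) ended without 9 of the 12 libraries, with adjusted p up to 0.175. Slc2a4, the insulin-responsive transporter GLUT4, was low at 2.59 ± 0.279, 1.91 ± 0.907 and 1.51 ± 0.250 CPM and was not called, with an edgeR adjusted p of 0.0921 at 6 against 0 µM, and of 0.0482 without 2 µM replicate 2.

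In the MYC, MAX and MLX network, whose proteins compete for E-boxes, 9 of 10 genes were tested. At 2 against 0 µM 1 rose and 1 fell (22.2% called, beside 2.35% of all genes). At 6 against 0 µM 2 rose and 1 fell (33.3%, beside 8.24%), and 0 were called at 6 against 2 µM. One of those that rose at 6 against 0 µM was Mxi1, by 0.27, and the other called genes were Myc and Mxd4. Myc rose at both doses, from 92.8 ± 3.04 to 122 ± 5.93 and 118 ± 10.2 CPM, by 0.40 (SE 0.0558) and 0.34 (SE 0.0558). Mxd4, which encodes a MAX partner that opposes MYC, fell by 0.36 (SE 0.0471) and 0.40 (SE 0.0471), from 87.4 ± 2.38 to 67.9 ± 1.37 and 66.4 ± 2.09 CPM. The edgeR adjusted p values at 2 against 0 µM were 0.000278 for Myc and 0.000163 for Mxd4. At 6 against 0 µM they were 0.000373 and 9.98e-06. At 6 against 2 µM neither passed the same test, with log2 fold changes of -0.06 and -0.03 (adjusted p = 0.745 and 0.858). Max itself had 0.08 and 0.09 with adjusted p values of 0.647 and 0.508.

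Among the 9 other arrestins and VPS26-type genes, 6 were tested and 1 was called, at 6 against 0 µM (16.7%, beside 8.24% of all genes). That gene was Arrb1, encoding β-arrestin 1, which went from 34.6 ± 5.70 to 43.1 ± 2.00 and 52.7 ± 6.04 CPM. Its rise at 6 against 0 µM was 0.61 (SE 0.0940, edgeR adjusted p = 0.000212), and it was called without each of the 12 libraries. At 2 against 0 µM its edgeR adjusted p was 0.0855, and it was called by DESeq2 (0.0246), with no count filter (0.000615) and without 0 µM replicate 4 (0.0261). At 6 against 2 µM it was 0.148, and it was called with no count filter (0.00298), with only those doses in the fit (0.0389) and without 6 µM replicate 2 (0.048). Arrb2, the other β-arrestin, had 0.07 at 6 against 0 µM with an edgeR adjusted p of 0.59.

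Among partners of TXNIP and the ARRDC proteins, 3 of 14 tested thioredoxin-system genes (21.4%) rose at 6 against 0 µM, namely Srxn1, Txnrd1 and Txnrd3, where 8.24% of all genes were called. Srxn1, a sulfiredoxin gene, rose by 0.26 (edgeR adjusted p = 0.0169, and 0.0508, 0.0638 and 0.0615 without 0 µM replicate 3 and 6 µM replicates 1 and 3). The calls of Txnrd1 and Txnrd3 ended without 11 and 9 of the 12 libraries, with adjusted p up to 0.130 and 0.124. Txn1, the thioredoxin that TXNIP binds, was 392 ± 21, 390.1 ± 24.9 and 416 ± 9.25 CPM and was not called at 6 against 0 µM (edgeR adjusted p = 0.306). Of 12 NEDD4-family ligases and adaptors 2 rose and 2 fell at 6 against 0 µM (33.3% called). Pdcd6ip (ALIX) rose by 0.17 and the adaptor Ndfip2 fell by 0.20, and each call ended without any of 3 single libraries. These were 0 µM replicate 2 and 6 µM replicates 1 and 4 for Pdcd6ip (adjusted p 0.0963, 0.083 and 0.0802), and 0 µM replicate 1 and 6 µM replicates 1 and 3 for Ndfip2 (0.0738, 0.078 and 0.097).

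AMPK phosphorylates TXNIP protein and marks it for loss. Of 11 AMPK subunits and upstream kinases, Cab39 rose at 2 against 0 µM by 0.20 (edgeR adjusted p = 0.0158, and 0.0673 and 0.0529 without 2 µM replicates 3 and 4). Prkag3 fell at 6 against 0 µM by 0.60, from 3.74 ± 0.145 to 2.47 ± 0.437 CPM, a call that ended without 8 of the 12 libraries (adjusted p up to 0.123). Each of these 2 comparisons thus had 9.09% of the list called, beside 2.35% and 8.24% of all genes. The catalytic subunit genes Prkaa1 and Prkaa2 had -0.05 and 0.24 at 6 against 0 µM, with edgeR adjusted p values of 0.584 and 0.582.

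Of 20 tested FoxO- and glucocorticoid-responsive genes, 1 rose at 2 against 0 µM and 5 rose at 6 against 0 µM. Called shares were 5% and 25%, beside 2.35% and 8.24% of all genes, and the list median at 6 against 0 µM was 0.17. Ccng2 rose by 0.26 (SE 0.0510) and Mt1 by 0.34 (SE 0.0671) at 6 against 0 µM, with edgeR adjusted p values of 0.00221 and 0.0024. Foxo1 rose by 0.24, a call that ended without 9 of the 12 libraries (edgeR adjusted p = 0.0458, up to 0.152), and Foxo3 had 0.20 and an adjusted p of 0.0707. Foxo3 was called there by DESeq2 (adjusted p = 0.0328), with no count filter (0.00269) and without 0 µM replicate 4 (0.0016). Tsc22d3 (GILZ), a glucocorticoid-induced gene, was highest at 2 µM, at 103 ± 8.10, 121 ± 6.52 and 97.8 ± 6.22 CPM. It fell at 6 against 2 µM by 0.30 (edgeR adjusted p = 0.00907, and 0.0562 without 2 µM replicate 4 and without 6 µM replicate 4). Its rise of 0.23 at 2 against 0 µM (edgeR adjusted p = 0.0363) was lost without 7 of the 12 libraries, with adjusted p up to 0.166.

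Over all 8 lists, 107 of 125 genes were tested. Of these, 9 rose and 1 fell at 2 against 0 µM, 26 rose and 5 fell at 6 against 0 µM, and 8 rose and 1 fell at 6 against 2 µM, so 9.35%, 29.0% and 8.41% were called beside 2.35%, 8.24% and 1.11% of all genes. The lists were written with earlier results of these data known, so these shares are a description and nothing is read from their excess. None of the 107 had all its 2 µM libraries below all others, as 0.293% of all genes did. Leaving out 2 µM replicate 4 brought the called genes at 2 against 0 µM from 10 to 4. At 6 against 0 µM they went from 31 to 20 without 6 µM replicate 1. At 6 against 2 µM they went from 9 to 5 without 2 µM replicate 4 and to 4 without 6 µM replicate 4.

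Other genes with the paired E-box were too few to read anything from their calls. Besides Txnip, 8 tested genes had it in the same window: 9230116N13Rik, A430005L14Rik, Fem1b, Fnip1, Irak1bp1, Man2b2, Nfkb2 and Rbbp4. Of these, 0 were called by edgeR in any comparison of doses, with 1, 3 and 1 at an unadjusted p under 0.05 for 2 against 0, 6 against 0 and 6 against 2 µM. As 2.51%, 8.93% and 1.27% of all tested genes with a promoter window were called, 0 of 8 is near that share. DESeq2 called Rbbp4, a chromatin gene, at 6 against 0 and at 6 against 2 µM. Log2 fold changes of the 8 genes at 2 against 0 µM ran from -0.32 to 0.13, beside -0.37 for Txnip. The -0.32 was 9230116N13Rik, near the floor at means of 0.671 CPM at 0 µM and 0.534 at 2 µM. The next lowest was Fnip1 at -0.07. Genes with an E-box (1027 tested) were called in 2.63%, 11.3% and 1.36% of cases in the same order, beside 2.51%, 8.93% and 1.27% of all 10669 tested genes with a promoter window.

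Among the genes searched, those whose level followed Txnip most closely were Spef1, Mamld1, Slc36a1, Cbr1 and Selenbp1. The search covered 9425 genes with a mean log2 CPM of at least 3. It left out the members, symbols starting with Gm and a digit, and symbols ending in Rik. Closeness was the root mean square difference in log2 CPM over the 12 libraries, each gene centred on its own mean. It was 0.154 for Spef1, a sperm flagellar protein gene, and 0.170 to 0.180 for the others. A gene with no variation at all would score 0.271, and the median gene scored 0.289. Spef1 measured 9.40 ± 0.659, 6.83 ± 1.27 and 9.42 ± 0.401 CPM, and its 2 µM libraries did not overlap with either other dose. Mamld1 averaged 10.5, 8.80 and 11.5 CPM, Slc36a1 17.0, 13.3 and 15.7, Cbr1 9.64, 8.80 and 10.3, and Selenbp1 34.7, 29.96 and 37.4 at 0, 2 and 6 µM. Spef1, Mamld1, Slc36a1 and Cbr1 were, like Txnip, lowest in 2 µM replicate 2, so their likeness rests in part on that library. Selenbp1 was lowest in 2 µM replicate 4. These genes were picked for their likeness to Txnip, so no test of their doses is given.

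**Figure D5:**
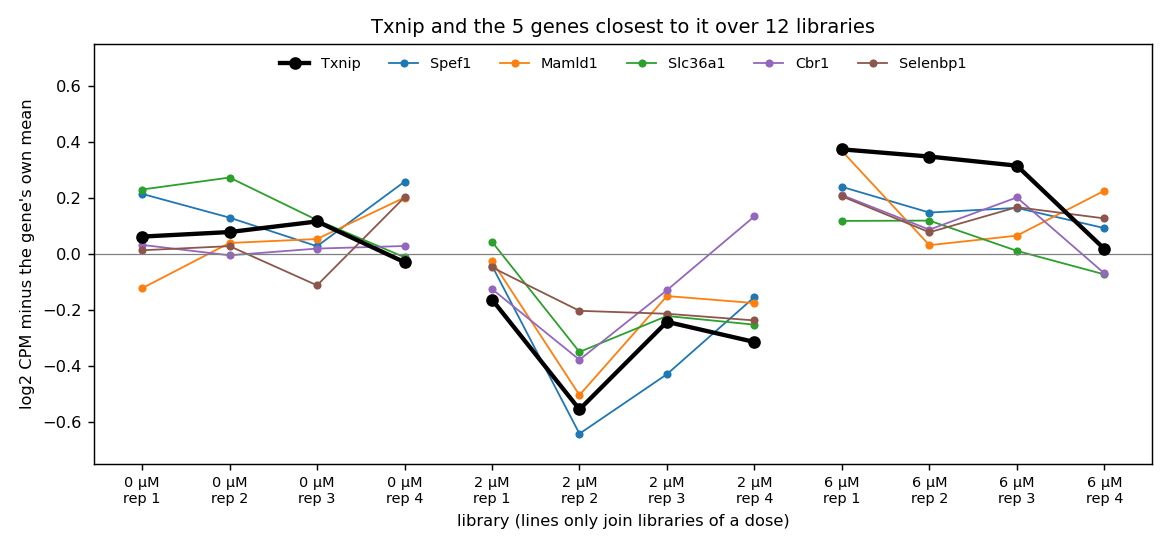
Log2 CPM of Txnip (black) and of the 5 genes closest to it among those searched, each minus its own mean, in the 12 libraries (x axis; lines only join libraries of a dose, which have no order). Txnip averages 0.06 at 0 µM, -0.32 at 2 µM and 0.26 at 6 µM, and 2 µM replicate 2 is its lowest library.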

How the data were processed

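The deposited values are raw gene counts for 54532 genes in 12 libraries. Reads were aligned with HISAT2 and the build was GRCm39, per the submitters' processing notes. For the counting program, its strand setting and the annotation release, the sources used here give nothing. Of 54409 genes shared with GENCODE M21, 53499 (98.3%) have its positions, so coordinates are named GRCm38.

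Counts were tested with edgeR 4.0.16 (R 4.3.3): TMM scaling, filterByExpr by dose, and the quasi-likelihood test on 1 fit of the 3 doses (9 residual degrees of freedom). P-values were Benjamini-Hochberg adjusted over 16038 genes, and a gene was called under 0.05. SEs were derived from the log2 fold change and F. Steps were tested on simulated data. Alternatives were upper-quartile scaling, DESeq2 size factors, other count filters, DESeq2 1.42.0, a replicate block, fits of 2 doses, and leaving out libraries.

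The members and lists were chosen with earlier results of these data known. Named genes are the 8 members, 15 genes fixed whatever their p, up to 2 called genes of each list with the smallest p in each comparison, and the 5 genes closest to Txnip. The same search for Arrdc4 could not be run, since it had no counts. Other called list members are named after their values were seen.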

Additional observations from a re-analysis of the deposited data

Results flagged for a closer look

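Of 123 groups of 4 libraries looked at (a member or named gene at a dose), 6 had a library whose gap to the nearest other, as a share of the group's range, exceeded Dixon's critical value, and chance flags about 1 in 20. None was a group of the 8 members, though Txnip at 6 µM was 15.8 CPM in replicate 4 against 19.5 to 20.3 in the other libraries. Slc2a4 was 3.27 CPM in 2 µM replicate 2 against 1.32 to 1.57 in the other libraries of that dose. Fgf21 was 53.1 CPM in 6 µM replicate 4 against 63.9 to 64.4. Ndfip2 was 92.7 CPM in 0 µM replicate 1 against 83.6 to 84.8. In 2 µM replicate 3, Cab39 was 126 CPM against 116 to 117, Pgm2 was 283 CPM against 301 to 304, and Txnrd3 was 20.1 CPM against 25.2 to 26.1.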

How the results depend on the processing

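The log2 fold changes of the 7 tested members moved by less than the SD between libraries of a dose in all 417 values over 20 alternatives. Leaving out 1 of 4 libraries moves a dose mean by less than that SD whatever the data, so no stability is read from this. No called value changed sign, but small values did, in 8 of 21 comparisons of members. Mlxipl ranged from -0.66 to 0.51 at 2 against 0 µM, so its direction is not set, and the sign also changed for Arrdc1 at 2 against 0 and 6 against 2 µM, Arrdc2 at 2 against 0 µM, Mlx at 6 against 2 µM, Mlxip at 6 against 0 µM and Mlxipl in the other comparisons. Txnip ranged from -0.43 to -0.30 at 2 against 0 µM, from 0.16 to 0.29 at 6 against 0 µM (the lowest without 0 µM replicate 1 and 6 µM replicates 2 and 3 together) and from 0.51 to 0.66 at 6 against 2 µM. Counts of called genes moved more, and the cause was not tested. At 2 against 0 µM, 377 genes were called, 631 with no count filter and 741 by DESeq2, and 106 to 490 without single libraries. At 6 against 0 µM, 1322 were called, 710 without the 3 libraries together, and 918 to 1343 without single libraries. At 6 against 2 µM, 178 were called, 401 with no count filter, 420 by DESeq2, 307 with only the 2 doses compared, and 82 to 259 without single libraries. Called genes of the related lists went from 10 to 18 by DESeq2 at 2 against 0 µM (4 to 11 without single libraries) and from 31 to 20 without the 3 libraries together at 6 against 0 µM (20 to 30 without single libraries). At 6 against 2 µM they went from 9 to 16 with no count filter, 14 by DESeq2 and 15 with only the 2 doses compared (4 to 11 without single libraries). Among the named genes outside the set and not picked for likeness to Txnip, 10 calls ended without the 3 libraries together: Fgf21, Foxo1, Ndfip2, Prkag3, Txnrd1 and Txnrd3 at 6 against 0 µM, Hk2, Slc2a1 and Tsc22d3 at 2 against 0 µM, and Tsc22d3 at 6 against 2 µM (edgeR adjusted p from 0.0605 to 0.225). Another 9 comparisons gained a call in at least 1 alternative: Arrb1 and Mt1 at 2 against 0 µM, Foxo3 and Slc2a4 at 6 against 0 µM, and Arrb1, Ccng2, Foxo3, Srxn1 and Txnrd1 at 6 against 2 µM (adjusted p from 0.000615 to 0.0486).

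Same-numbered libraries of different doses did not deviate together (correlations of deviations over 9773 genes from -0.22 to 0.11). Of 12 libraries, 0 correlated best with their own number. No pairing by number was thus visible, but this cannot tell whether same-numbered libraries were cultured or handled together. With the replicate block, Txnip was -0.37, 0.21 and 0.58, and 273, 1154 and 123 genes were called for 2 against 0, 6 against 0 and 6 against 2 µM, with 8, 24 and 9 of the lists. The block ended the calls of Txnip, Slc2a1 and Tsc22d3 at 2 against 0 µM and of Foxo1, Prkag3, Txnrd1 and Txnrd3 at 6 against 0 µM (edgeR adjusted p from 0.0554 to 0.0793 for those other than Txnip). Depth limits Mlxipl.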
